A study of Mus musculus with 3 samples.

Results

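Heart macrophages with high MHC class II were picked from single-cell profiles by their transcripts, counted as unique molecular identifiers (UMIs), each of which stands for 1 captured RNA molecule. A barcode counted as such a macrophage if it had at least 2 UMIs summed over the 4 class II genes H2-Aa, H2-Ab1, H2-Eb1 and Cd74, and if at least 2 of 8 macrophage genes (Csf1r, Adgre1, Mrc1, C1qa, C1qb, C1qc, Cd86 and Cx3cr1) were detected. It also had to hold 0 UMIs of the B cell genes Cd79a and Cd79b, and at most 1 UMI over Pdgfra, Cdh5, Muc16 and Abcc9, which mark fibroblasts, endothelium, mesothelium and mural cells. The rule found 681 of 38646 barcodes, of which 303 came from Myh6-R404Q, 156 from Prkag2-p.R299Q and 222 from WT. Of these, 131 (19.24%) were called doublets, barcodes that may hold more than 1 cell, and were left out: 56 in Myh6-R404Q hearts, 32 in Prkag2-p.R299Q hearts and 43 in WT hearts. The account below is of the 550 that were kept, 247 from Myh6-R404Q, 124 from Prkag2-p.R299Q and 179 from WT, out of 32226 kept cells.

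The samples were heart cells of male C57/B6J mice, labelled as total cells, released with collagenase, strained, and captured with a droplet kit that counts transcript 3-prime ends. Mice carried a point mutation in Myh6, the main myosin motor of adult mouse heart muscle (Myh6-R404Q), or in Prkag2, a subunit of the energy sensor AMPK (Prkag2-p.R299Q), or neither (WT). Mutations of both genes are linked to enlargement of the heart muscle in people, and the study compared each with WT. There was 1 library per genotype. The sources used here do not give the ages of the mice, how many animals went into a library, or whether 1 or both alleles were mutant.

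The Myh6-R404Q library held 12662 barcodes and 38251499 UMIs, the Prkag2-p.R299Q library 7951 barcodes and 31385005 UMIs, and the WT library 18033 barcodes and 41047991 UMIs. The matrix deposited for Myh6-R404Q repeats the other libraries, so its barcodes were taken from the remaining suffix, an assignment made by elimination. Between libraries, 28 to 51 barcode sequences recurred, but 0 of them belonged to kept high class II macrophages in both libraries of a pair. A 3-prime count does not show a point mutation: over all kept cells Myh6 was at 6108 CPM (the UMIs of a gene relative to all UMIs of those cells, on the usual CPM scale) in Myh6-R404Q hearts, 7178 in Prkag2-p.R299Q hearts and 6437 in WT hearts, and Prkag2 at 120, 126 and 137 CPM. These levels check no genotype label.

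Class II molecules display peptides from engulfed material to CD4 T cells. H2-Aa pairs with H2-Ab1, and H2-Eb1 encodes a further class II beta chain, whose pairing was not measured here. Cd74, the invariant chain, escorts new class II molecules to the compartment where H2-DM (H2-DMa with H2-DMb1) swaps in the peptide. Ciita is the coactivator that switches this set of genes on, by docking to proteins bound at the X and Y boxes in front of each class II gene. In the mouse heart, macrophages seeded before birth and renewed in place typically carry Lyve1, Timd4 and Vsig4, whereas those replaced from blood monocytes tend to carry the chemokine receptor Ccr2, and class II varies within both.

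The X and Y boxes are shown first because they occur both in front of H2-Eb1, which chose the cells, and in front of H2-DMb1, which did not. Promoters (250 bases before to 50 after a RefSeq gene start, GRCm38.p6) were searched on both strands for AACNGATG, the core of the X box, followed after 10 to 35 bases by ATTGG, the core of the Y box. AACNGATG alone was in 2.32% of 32851 promoters and ATTGG alone in 37.4%, and the ordered pair was in 10 promoters, 0.0304%. Of these 10, 4 belong to class II genes, all on the plus strand of chromosome 17. Capitals mark the X core and the Y core, in that order.
H2-Eb1: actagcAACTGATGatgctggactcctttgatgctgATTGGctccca
H2-DMb1: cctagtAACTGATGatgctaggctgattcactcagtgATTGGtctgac
H2-DMb2: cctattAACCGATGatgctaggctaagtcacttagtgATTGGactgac
H2-Eb2: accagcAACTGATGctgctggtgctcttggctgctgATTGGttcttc
The windows are chr17:34305772-34305818 for H2-Eb1, chr17:34153093-34153140 for H2-DMb1, chr17:34145122-34145169 for H2-DMb2 and chr17:34325539-34325585 for H2-Eb2. The boxes stand 22 bases apart in H2-Eb1 and H2-Eb2 and 23 bases apart in H2-DMb1 and H2-DMb2, and the X core begins 89, 92, 121 and 130 bases before the gene start in H2-Eb1, H2-DMb1, H2-DMb2 and H2-Eb2. The other promoters looked up by name were read on the gene's own strand only. There H2-Aa, H2-Oa, H2-Ob, Rfxank and 1 of the promoters listed for H2-DMa held ATTGG without the X core letters. The other promoter of H2-DMa and that of Rfx5 held neither on that strand. Of the other genes with both boxes, H2-Eb2 had 0 UMIs in every library, and H2-DMb2, a near-identical copy of H2-DMb1 with which reads could be confused, had 6 UMIs in Myh6-R404Q hearts, 0 in Prkag2-p.R299Q hearts and 1 in WT hearts. Of 16 class II and regulator genes looked up, 10 were in the promoter table.

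The genes that chose the cells are described without a test. Each cell carried few class II UMIs, with a median of 3 in every library and a maximum of 16 in Myh6-R404Q hearts, 12 in Prkag2-p.R299Q hearts and 14 in WT hearts. Cd74 was the class II gene found in the most cells, in 74.1% of the high class II macrophages of Myh6-R404Q, 71.0% of those of Prkag2-p.R299Q and 68.2% of those of WT. H2-Ab1 was found in the fewest, in 47.0%, 43.5% and 36.9%. All 4 genes were seen together in only 30, 12 and 9 cells, and 35, 25 and 30 cells passed on UMIs of a single class II gene. Cells with exactly 2 class II UMIs, just inside the threshold, numbered 85 in Myh6-R404Q hearts, 52 in Prkag2-p.R299Q hearts and 77 in WT hearts, and cells with 1, just outside it, 141, 109 and 202.

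Each cell held at least 2 of the 8 macrophage genes because the rule asked for them, and the genes differed in how often they were detected. Mrc1, the mannose receptor, was detected in 84.6% of the cells in Myh6-R404Q hearts, 91.9% in Prkag2-p.R299Q hearts and 85.5% in WT hearts. Adgre1, which encodes the F4/80 antigen, was in 66.4%, 70.2% and 57.5%, and Csf1r, the receptor for the growth factor that keeps macrophages alive, in 55.9%, 61.3% and 39.7%. Cd86, a costimulatory ligand for T cells, was in 33.2%, 39.5% and 33.5%, and the fractalkine receptor Cx3cr1 in 17.4%, 16.1% and 15.1%. A total of 65 cells in Myh6-R404Q hearts, 18 in Prkag2-p.R299Q hearts and 61 in WT hearts had exactly 2 of the 8 macrophage genes, the fewest the rule allows.

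Macrophage genes outside the rule fit the label. All 20 genes of a general macrophage list were detected in every library, and their summed level was 5614 CPM in Myh6-R404Q hearts, 5745 in Prkag2-p.R299Q hearts and 4921 in WT hearts, where the cells outside the macrophage gate had 396, 316 and 414 CPM. Mertk, a receptor for dying cells, was at 503, 556 and 506 CPM. Lymphocyte genes were mixed. Over 11 B cell genes, 7 were detected and the sum was 963, 1095 and 1062 CPM, against 1117, 1309 and 1243 CPM in the macrophages they are compared with below and 1596, 1578 and 1568 CPM outside the gate. Most of it was Bank1, a signalling adaptor of B cells, at 581, 812 and 672 CPM, while Ms4a1, which encodes CD20, had 0 UMIs. The part of B cell RNA in these levels was not tested. A list of 15 T and NK cell genes summed to 14.6, 29.9 and 44.0 CPM, against 41.0, 37.2 and 37.0 CPM outside the gate. Among B cell genes tested against the same macrophages, Ighm was higher (0.86) and Ebf1 lower (-1.02), but Ighm did not pass without the Myh6-R404Q library (edgeR adjusted p = 0.104) or without the Prkag2-p.R299Q library (0.0998). Ly6c2 of inflammatory monocytes had 0 UMIs. Dendritic cells, which also carry class II, were looked for through Flt3, Xcr1, Clec9a and Cd209a, and 16 of 247 cells in Myh6-R404Q hearts, 3 of 124 in Prkag2-p.R299Q hearts and 3 of 179 in WT hearts held a UMI of any of these. That was 6.48%, 2.42% and 1.68%, against 0.725%, 1.105% and 0.777% of the macrophages used for comparison below. Most cells thus showed no UMI of these dendritic markers, although low capture means that cells without a UMI may still express one.

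Macrophages that passed every other part of the rule but had 0 or 1 class II UMIs served for comparison, and are called macrophages below the threshold. They numbered 690 in Myh6-R404Q hearts, 724 in Prkag2-p.R299Q hearts and 1159 in WT hearts. High class II macrophages were 26.4% of all gated macrophages in Myh6-R404Q hearts (95% exact binomial interval 23.6 to 29.3), 14.6% in Prkag2-p.R299Q hearts (12.3 to 17.2) and 13.4% in WT hearts (11.6 to 15.3). The share in Myh6-R404Q was 1.97 times that of WT (1.66 to 2.34), and the share in Prkag2-p.R299Q 1.09 times (0.884 to 1.35). These intervals cover counting error only, and genotypes were not tested against each other, since each has 1 library.

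Depth bears on these shares because the rule counts UMIs, and gated macrophages had a median of 1752 UMIs in Myh6-R404Q hearts, 2179 in Prkag2-p.R299Q hearts and 1448 in WT hearts. With every cell thinned to 1000 UMIs and shallower cells left out, the shares were 17.4%, 6.83% and 9.06%. The ratio to WT was then 1.92 (1.46 to 2.52) for Myh6-R404Q and 0.754 (0.527 to 1.08) for Prkag2-p.R299Q. The ratio for Myh6-R404Q thus differed little at equal depth, whereas Prkag2-p.R299Q moved to below WT, with an interval that includes 1. Over all kept cells, gated macrophages were 8.88% in Myh6-R404Q hearts, 12.4% in Prkag2-p.R299Q hearts and 9.02% in WT hearts, and those with high class II 2.34%, 1.81% and 1.21%. As a measure of counts in cells that should lack class II, of fibroblasts gated on Pdgfra 2 of 612 in Myh6-R404Q hearts (median 2252 UMIs), 1 of 504 in Prkag2-p.R299Q hearts (2851) and 0 of 501 in WT hearts (1996) had 2 or more class II UMIs. The count of 0 allows a share of up to 0.599% (3 counts of the total). The part of free RNA in the macrophage counts was not tested.

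**Figure D1:**
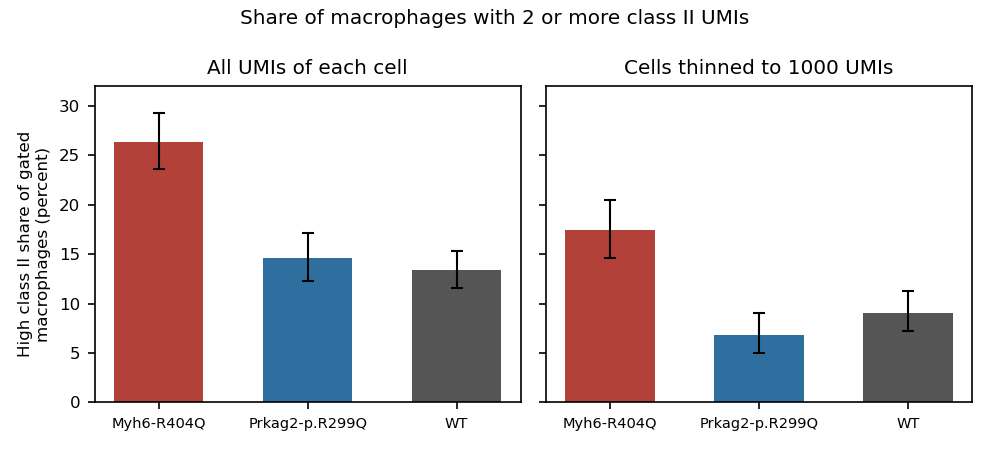
High class II macrophages as a percent of gated macrophages in each library, with all UMIs of a cell (left) and with cells thinned to 1000 UMIs (right). Bars are shares and lines are 95% exact binomial intervals, which cover counting error only. Myh6-R404Q stands at 26.4% and 17.4%, above Prkag2-p.R299Q (14.6% and 6.83%) and WT (13.4% and 9.06%) in both panels.

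High class II macrophages were then compared with macrophages below the threshold within the same libraries. UMIs were summed per library and group, and genes were tested with edgeR's quasi-likelihood test with library as a term and Benjamini-Hochberg adjustment over 10065 genes. The 18 genes of the rule stayed in the fit and in no count. At an adjusted p of at most 0.05, 357 genes were higher (3.55% of those tested) and 503 were lower (5%) in the high class II cells. The 3 pairs come from hearts of different genotypes, and the p-values rest mostly on a variance shared over all genes (prior degrees of freedom 21.68, residual 2). Genes outside the rule took no part in choosing the cells, but they were measured in the same cells that the class II genes chose.

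Class II genes outside the rule were higher in the high class II macrophages, as far as they could be tested. Ciita (chromosome 16, 10480059 to 10528418, plus strand, mm10) was at 384, 240 and 298.5 CPM in the high class II cells of Myh6-R404Q, Prkag2-p.R299Q and WT, and at 52.2, 30.7 and 39.9 CPM in macrophages below the threshold. The groups were far apart in every library, and the log2 fold change was 2.91 (SE 0.14, adjusted p = 4.38e-13). H2-DMb1, the beta chain of the peptide exchange factor H2-DM, was at 102, 99.8 and 66.0 CPM against 12.3, 14.2 and 14.4 CPM (log2 fold change 2.70, SE 0.26, adjusted p = 1.60e-07). How many of all tested genes have groups this far apart was not counted, so the gaps themselves are not read as a result. H2-DMa, the alpha chain, was at 27.1, 36.6 and 31.4 CPM against 18.1, 13.6 and 12.3 CPM, a smaller difference (1.08, SE 0.34, adjusted p = 0.0461). It passed in 5 of 12 alternative analyses, and the edgeR adjusted p was 0.119 without the Myh6-R404Q library, 0.284 without the Prkag2-p.R299Q library and 0.175 without the WT library. These were all 3 genes of a list of other class II genes that could be tested, set against a background of 3.55% of genes called higher.

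Any Ciita UMI was seen in 112 of 247 high class II macrophages of Myh6-R404Q (45.3%), 45 of 124 of Prkag2-p.R299Q (36.3%) and 58 of 179 of WT (32.4%), and in 8.12%, 5.11% and 5.18% of macrophages below the threshold. Fibroblasts of the gate above, which leaves out cells with macrophage genes, had one in 1.47%, 2.58% and 0.998%. Median depth was 1759, 2212 and 1607 UMIs in the high class II cells and 1742, 2178 and 1427 in the cells below the threshold, so it differed most in WT.

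Among 11 genes of peptide processing for class II, 2 were higher and 0 lower, where 3.55% of all genes tested were higher and 5% lower. These were the proteases Ctss, which trims the invariant chain, at 211, 196 and 157 CPM against 121, 125 and 113 CPM (log2 fold change 0.66, adjusted p = 0.00222), and Ctsh (0.75, adjusted p = 0.000313). The list median was 0.016 on the log2 scale, close to the 0.0036 of all genes tested. Ctss did not pass without the Myh6-R404Q library (edgeR adjusted p = 0.108). Class I presentation gave a median of 0.25, and 0 of 16 genes passed. Of 12 tested costimulation genes, 2 were higher: Cd83, which stabilises class II at the cell surface, and Slamf7, a self-binding receptor of immune cells. Cd83 was at 146, 123 and 229 CPM against 75.4, 81.5 and 63.9 CPM (1.17, SE 0.19, adjusted p = 0.000153), and Slamf7 at 68.9, 26.6 and 37.7 CPM against 12.3, 5.32 and 6.39 CPM (2.46, SE 0.33, adjusted p = 1.56e-05).

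Ccr2 (chromosome 9, 124101950 to 124113557, plus strand), which binds Ccl2 and brings monocytes out of the blood, was at 253, 200 and 283 CPM in the high class II cells and at 30.5, 12.99 and 26.6 CPM below the threshold. The log2 fold change of 3.41 (SE 0.18, adjusted p = 2.29e-12) was the second highest among the genes named by the rule on size. A Ccr2 UMI was seen in 44 of 247 cells of Myh6-R404Q (17.8%), 21 of 124 of Prkag2-p.R299Q (16.9%) and 36 of 179 of WT (20.1%), against 2.899%, 1.24% and 2.07% below the threshold. Fibroblasts of the same gate, without macrophage genes, had one in 4, 0 and 2 cells. Most high class II cells therefore showed no Ccr2 UMI at this depth.

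Markers of resident macrophages were lower as a group in the high class II cells: of 17 tested, 7 were lower and 0 higher, and the median was -0.36 on the log2 scale, where 5% of all genes were called lower. Lyve1, a hyaluronan receptor, was at 52.2, 146 and 59.7 CPM against 102, 246 and 168 CPM (-1.01, SE 0.17, adjusted p = 0.000227). Vsig4, a complement receptor, was at 81.4, 133 and 37.7 CPM against 176, 237 and 145 CPM (-1.16, SE 0.17, adjusted p = 5.16e-05), and Timd4, a receptor for dying cells, at 33.4, 49.9 and 44.0 CPM against 63.8, 100 and 73.5 CPM (-0.89, SE 0.22). Within each library the high class II cells were lower for all 3 genes, but the ranges over libraries overlapped for Lyve1, since the Prkag2-p.R299Q cells with high class II (146 CPM) stood above the Myh6-R404Q cells below the threshold (102 CPM). F13a1, which encodes a clotting factor subunit made by macrophages, remained abundant at 2247, 3294 and 3083 CPM against 3187, 5239 and 5369 CPM (-0.65, SE 0.07, adjusted p = 2.50e-07). Timd4 did not pass without the Myh6-R404Q library (edgeR adjusted p = 0.102) or without the Prkag2-p.R299Q library (0.118). Cbr2 (-0.60), Stab1 (-0.46) and the haemoglobin scavenger receptor Cd163 (-0.36) were the others, and none of these 3 passed without the Prkag2-p.R299Q library (0.118, 0.0747 and 0.168). Cd163 also did not pass without the WT library (0.343), so that Lyve1, Vsig4 and F13a1 were the 3 resident markers called with each library left out.

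UMIs of both Ccr2 and a resident marker were found in few cells. Of the high class II macrophages, 42 in Myh6-R404Q hearts, 18 in Prkag2-p.R299Q hearts and 32 in WT hearts had Ccr2 without Lyve1, Vsig4 or Timd4. Another 44, 32 and 27 had 1 or more of these resident markers without Ccr2, and 2, 3 and 4 cells had both. The largest group, 159, 71 and 116 cells, had no UMI of any of these genes. Below the threshold, 18, 5 and 17 cells had Ccr2 alone, 244, 383 and 413 a resident marker alone, and 2, 4 and 7 both. Cells with Ccr2 alone were 17.0%, 14.5% and 17.9% of the high class II macrophages, against 2.61%, 0.691% and 1.47% below the threshold. Each of these genes was seen in a minority of cells, and the number with both to be found under independence was not computed. Whether Ccr2 and the resident markers exclude each other was not tested.

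Levels also moved with the number of class II UMIs within the gated macrophages, given here as a description over bins of 0, 1, 2, 3 to 5 and 6 or more class II UMIs, which held 2121, 452, 214, 253 and 83 cells over all libraries. Ciita was at 27.7, 98.7, 226, 335 and 465 CPM in these bins and Ccr2 at 16.4, 53.9, 165, 217 and 475 CPM. F13a1 ran the other way, at 4824, 4214, 3281, 2791 and 1764 CPM. Cells with 1 class II UMI lay between those with 0 and those with 2 for Ciita, Ccr2 and F13a1 over all libraries. The direction from the lowest to the highest bin was the same in each library for these 3 genes, although the top bin held only 49 cells in Myh6-R404Q hearts, 20 in Prkag2-p.R299Q hearts and 14 in WT hearts, and their median depth over all libraries was 2340 UMIs against 1673 in the lowest bin.

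**Figure D2:**
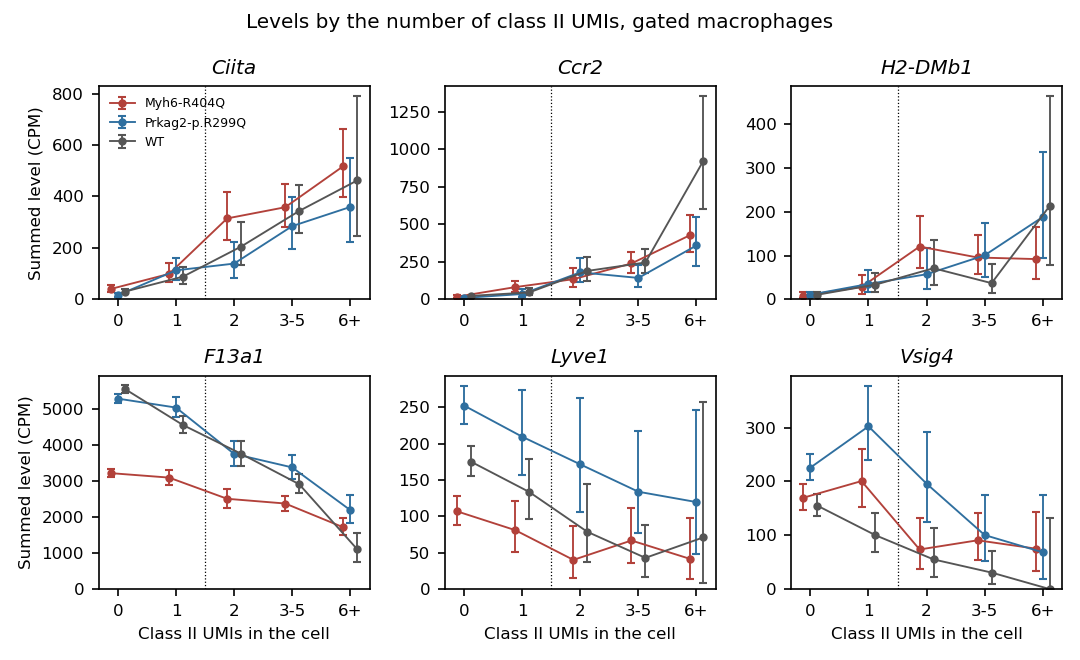
Summed level (CPM) of 6 genes in gated macrophages by the number of class II UMIs in the cell, per library, with 95% exact Poisson intervals. The dotted line marks the threshold of 2 UMIs. Ciita and Ccr2 are higher, and F13a1 is lower, in the bin of 6 or more class II UMIs than in the bin of 0 in each library.

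By the rule on size, the other genes highest in high class II macrophages were Klri1, Sirpb1a, Cd226, Grap2, Ndnf, Ptchd1, Clec4b1, Tnip3, Sirpb1b, Emb and Oprm1. Oprm1, the mu opioid receptor, was at 109, 126 and 107 CPM in the high class II cells and at 23.2, 24.8 and 20.8 CPM below the threshold (log2 fold change 2.31, SE 0.21, adjusted p = 7.06e-08), with values that varied little between libraries in either group. Cd226, an adhesion receptor of T and NK cells that also occurs on myeloid cells, was at 33.4, 36.6 and 97.4 CPM against 7.98, 3.54 and 6.39 CPM (3.20, SE 0.38). Grap2, an adaptor of receptor signalling, was at 54.3, 56.6 and 25.1 CPM against 8.70, 2.36 and 3.73 CPM (3.17, SE 0.41). The lectin Clec4b1, a member of a C-type lectin family of myeloid cells, was at 54.3, 39.9 and 47.1 CPM against 5.80, 8.27 and 5.32 CPM (2.86, SE 0.35). These 4 genes were named by a rule that asked for the same sign in all 3 libraries and the largest folds, so their shared sign is no separate result.

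Klri1, a lectin-like receptor known from NK cells, had the highest fold change (6.05, SE 0.78) on few counts: 43.9, 13.3 and 12.6 CPM, where 1 UMI is worth 2.09, 3.33 and 3.14 CPM, against 0.725 CPM in Myh6-R404Q and 0 UMIs in the other libraries below the threshold. Its fitted fold depends on how counts of 0 are handled. Sirpb1a and Sirpb1b are similar copies of an activating receptor between which reads may be split, so their values (log2 fold changes of 3.21 and 2.55) are uncertain. Ptchd1 (2.97), Ndnf (3.09), Tnip3 (2.59), a relative of inhibitors of NF-kappaB signalling, and the membrane glycoprotein Emb (2.42) made up the rest. Without the Myh6-R404Q library the edgeR adjusted p was 0.0620 for Sirpb1a and 0.0694 for Ndnf.

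Of the other lists, dendritic cell markers had 11 tested genes, of which 3 were higher and 0 lower, beside 3.55% and 5% of all genes tested. Their median was 0.42. The 3 higher genes were the transcription factor gene Batf3 (1.16, at 91.9, 63.2 and 31.4 CPM against 38.4, 23.03 and 21.3 CPM), the lectin Mgl2 (0.60) and Wdfy4 (0.64), which is needed for cross-presentation. All 3 were also detected below the threshold. Batf3 did not pass without the Myh6-R404Q library (edgeR adjusted p = 0.152) or without the Prkag2-p.R299Q library (0.0582), nor Mgl2 without the Prkag2-p.R299Q library (0.133). The summed level of the 23 dendritic markers was 1080, 1128 and 1012 CPM against 747, 789 and 758 CPM. Cd209a, a marker of monocyte-derived dendritic cells, was at 22.97, 16.6 and 6.28 CPM, that is 11, 5 and 2 UMIs, against 0, 0 and 1 UMI. With every cell that held a UMI of Flt3, Xcr1, Clec9a or Cd209a left out, 313 genes were higher and 452 lower. Of the genes called above, 307 and 439 were among them, and Ccr2, Ciita and H2-DMb1 stayed called. The part of dendritic cells without such a UMI was not tested.

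General macrophage genes gave 4 higher and 0 lower of 20: Ptprc, the pan-leukocyte phosphatase CD45, at 1320, 1211 and 1065 CPM against 730, 751 and 666 CPM (0.75, SE 0.08, adjusted p = 2.87e-07), Mpeg1, a pore-forming protein of phagocytes (1.43; adjusted p of 0.140 without the Myh6-R404Q library and 0.0556 without the Prkag2-p.R299Q library), Cyth4 (0.41) and the protease Ctsc (0.34). Of 8 tested monocyte markers, Ccr2 and the integrin Itga4 (0.52) were higher and 0 were lower, and of 7 chemokine receptors only Ccr2 was called. The shares over all genes tested were 3.55% higher and 5% lower. Chemokines and cytokines gave 2 higher and 1 lower of 11: Cxcl16, a ligand of T cells, was at 100, 99.8 and 104 CPM against 76.1, 52.6 and 46.3 CPM (0.79, adjusted p = 0.00984), Il1b was at 18.8, 6.65 and 59.7 CPM against 7.98, 5.91 and 15.97 CPM (1.47, adjusted p = 0.0190), and Ccl6 was lower (-0.63). Il1b in the Prkag2-p.R299Q cells rested on 2 UMIs, and it did not pass without the Myh6-R404Q library (edgeR adjusted p = 0.141). Cxcl16 did not pass without the Prkag2-p.R299Q library (0.129) or without the WT library (0.0843), and Ccl6 did not pass with any 1 library left out (0.0648 to 0.282). Itga4 did not pass without the Myh6-R404Q library (0.234), nor Ctsc (0.314) and Cyth4 (0.0960) without the Prkag2-p.R299Q library.

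Uptake receptors split in direction, where 3.55% of all genes tested were higher and 5% lower. Of 17 complement and phagocytosis genes, Axl, which clears dying cells, was at 182, 143 and 179 CPM against 76.9, 72.7 and 79.9 CPM (1.14, SE 0.15, adjusted p = 1.47e-05). The inhibitory antibody receptor Fcgr2b was also higher (0.54), though not without the Myh6-R404Q library (edgeR adjusted p = 0.515). The scavenger receptor Colec12 was lower, at 140, 389 and 264 CPM against 460, 635 and 639 CPM (-1.19, SE 0.13, adjusted p = 6.09e-07), as were Stab1 and Timd4. Tgfbr1, a receptor of TGF-beta, was at 679, 426 and 418 CPM against 358, 172 and 201 CPM (1.08, SE 0.10, adjusted p = 1.16e-07). It belongs to a list of microglia-like genes, of which 2 of 9 were higher, the other being the oxysterol receptor Gpr183 (0.59), which did not pass with any 1 library left out (edgeR adjusted p of 0.121 to 0.227). The growth factor list gave Pdgfb (0.71) and the prostaglandin-degrading enzyme Hpgd (0.56) higher, and Pdgfc (-0.67), Vegfa (-1.16), Fgf13 (-0.66) and Nrp1 (-0.28) lower. Each of these 6 lost its call with some library left out. Without the Myh6-R404Q library the edgeR adjusted p was 0.0774 for Pdgfb, 0.171 for Hpgd, 0.137 for Vegfa, 0.140 for Fgf13 and 0.353 for Nrp1. Without the Prkag2-p.R299Q library it was 0.0932 for Pdgfb, 0.0909 for Pdgfc, 0.0526 for Fgf13 and 0.0779 for Nrp1, and without the WT library 0.110 for Nrp1.

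Interferon-gamma induces Ciita, and its response genes were therefore read as a list, beside 3.55% of all genes tested called higher and 5% lower. Of 14 tested, Ifngr1, a chain of the interferon-gamma receptor, was higher at 148, 123 and 167 CPM against 92.8, 99.2 and 96.4 CPM (0.61, adjusted p = 0.0120). Iigp1, a GTPase that interferon-gamma induces, was lower at 16.7, 6.65 and 44.0 CPM against 75.4, 30.1 and 46.9 CPM (-1.26, adjusted p = 0.0188). Ifngr1 did not pass without the Myh6-R404Q library (edgeR adjusted p = 0.171) or without the WT library (0.0978), nor Iigp1 without the Myh6-R404Q library (0.622) or without the Prkag2-p.R299Q library (0.148). The list median was 0.25, and of 10 type I interferon genes 0 passed. Lists of immediate early, heat shock and cell cycle genes had 15, 13 and 6 tested genes and 0 called in either direction at this adjusted threshold.

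**Figure D3:**
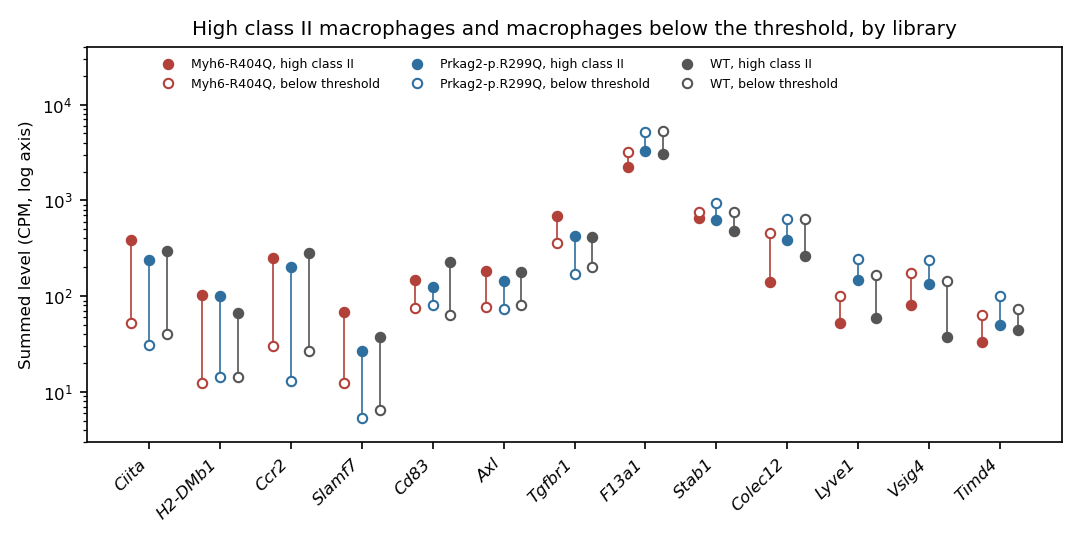
Summed level (CPM, log axis) of 13 genes in high class II macrophages (filled) and macrophages below the threshold (open) of each library, joined by a line. Ciita, H2-DMb1, Ccr2, Slamf7, Cd83, Axl and Tgfbr1 are higher, and F13a1, Stab1, Colec12, Lyve1, Vsig4 and Timd4 are lower, in the high class II cells of each library.

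Some genes of other heart cells were lower in the high class II macrophages. Of 12 endothelial genes 4 were lower, of 11 fibroblast genes 3, and of 15 cardiomyocyte genes 3, with 0 higher in each list and medians of -0.63, -0.56 and -0.087. Over all genes tested, 5% were called lower and 3.55% higher. Vwf of endothelium was at 18.8, 3.33 and 18.9 CPM against 75.4, 9.45 and 29.3 CPM, while kept cells outside the macrophage gate averaged 63.9 CPM, and it did not pass without the Myh6-R404Q library (edgeR adjusted p = 0.617). The genes lowest by size included Reln, Flt4 and Prox1, which lymphatic endothelium expresses, with log2 fold changes of -3.35, -1.98 and -1.45. Flt4 did not pass with any 1 library left out (edgeR adjusted p of 0.0615 to 0.0913), nor Prox1 without the Myh6-R404Q library (0.167) or without the Prkag2-p.R299Q library (0.0748). Reln was at 0, 3.33 and 15.7 CPM in the high class II cells, against 63.8, 27.8 and 77.2 CPM below the threshold and 89.2 CPM outside the gate. Summed endothelial genes were at 430, 203 and 654 CPM against 697, 385 and 861 CPM, and summed fibroblast genes at 1069, 822 and 1109 CPM against 1420, 1236 and 1426 CPM. Summed cardiomyocyte genes were not lower throughout, at 12720, 11960 and 19840 CPM against 18230, 11830 and 18450 CPM. Of the called genes, Pecam1, Egfl7, Emcn, Tnnt2, Actn2, Col8a1 and Pcsk6 did not pass without the Myh6-R404Q library (0.295, 0.137, 0.171, 0.307, 0.313, 0.0634 and 0.0981). Without the Prkag2-p.R299Q library Pecam1, Egfl7, Tnnt2, Actn2 and Pcsk6 did not pass (0.236, 0.0676, 0.0602, 0.0985 and 0.0807). The part of RNA from other cells in these differences was not tested.

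The other genes lowest by size were Rgs7bp, Ikbke, Dnm1, Fignl2, Egfros, D5Ertd615e, Ltc4s, Aspa, Gprc5c, Vwf, Sdk1 and Ednrb. Gprc5c did not pass with any 1 library left out (edgeR adjusted p of 0.125 to 0.179). Aspa (0.268), D5Ertd615e (0.266) and Fignl2 (0.0825) did not pass without the Myh6-R404Q library. Without the Prkag2-p.R299Q library Aspa (0.0790) and Fignl2 (0.0676) did not pass. Rgs7bp, which anchors regulators of G protein signalling, was at 16.7, 6.65 and 9.43 CPM against 53.7, 72.1 and 79.9 CPM (-2.48, SE 0.33, adjusted p = 1.47e-05), and kept cells outside the gate averaged 25.9 CPM. Ltc4s, the enzyme that makes leukotriene C4, was at 29.2, 19.96 and 3.14 CPM against 61.6, 75.01 and 37.8 CPM (-1.64, SE 0.31), where cells outside the gate had 2.58 CPM. Both were thus higher in macrophages below the threshold than in other heart cells. Egfros is an antisense RNA of Egfr, and whether strand was used in counting is not given in the sources used here, so its value (-1.90) is uncertain.

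**Figure D4:**
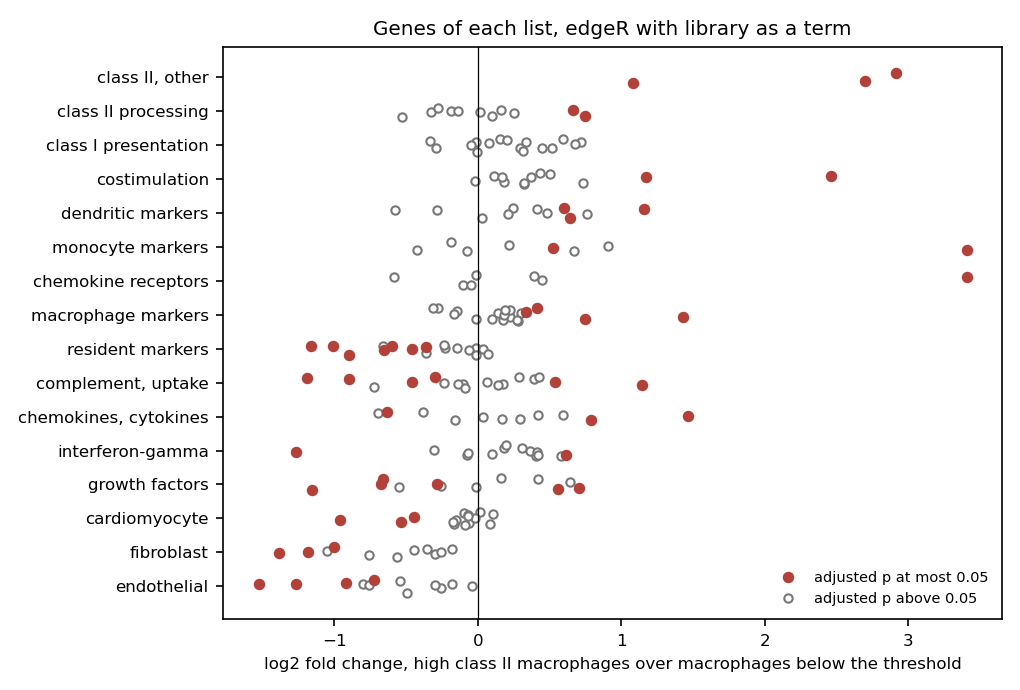
Log2 fold change of each tested gene in 16 lists, high class II macrophages over macrophages below the threshold, from edgeR with library as a term. Red points have an adjusted p of at most 0.05. The 3 other class II genes lie to the right of 0, while the called resident, endothelial, fibroblast and cardiomyocyte genes lie to the left.

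These counts depend on depth and on the libraries. Without the Myh6-R404Q library 147 genes were higher and 172 lower, and without the Prkag2-p.R299Q library 178 and 264. With cells thinned to 1000 UMIs, which leaves 6255 genes to test in fewer cells, 31 were higher and 22 lower. Ccr2, Ciita, H2-DMb1, Oprm1, Rgs7bp, Cd83 and Ptprc passed in all 13 alternatives. Of the named genes that could be tested with thinned cells, 13 stayed called, 40 no longer passed and 4 changed sign. Lyve1, Axl and Ctsh were among those that no longer passed (edgeR adjusted p of 0.128, 0.0549 and 0.818), at log2 fold changes of -1.01, 1.12 and 0.30.

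The genotypes were compared within the high class II macrophages by size, with no test, since each has 1 library. UMIs summed to 478841 in the cells of Myh6-R404Q, 300586 in those of Prkag2-p.R299Q and 318213 in those of WT. A gene passed if its level reached 50 CPM in 1 of the libraries compared, with at least a 2-fold difference and a 95% counting interval beyond a ratio of 5 to 4. In Myh6-R404Q against WT, 70 of 4581 genes were higher by this rule (1.53%) and 140 lower (3.06%). In Prkag2-p.R299Q against WT, 56 of 4504 were higher (1.24%) and 174 lower (3.86%), and in Prkag2-p.R299Q against Myh6-R404Q 46 of 4366 were higher (1.05%) and 50 lower (1.15%). Both comparisons with WT share the WT library. Fewer cells of a kind and less RNA per cell cannot be told apart in such sums.

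The class II genes, which chose the cells, differed by less than 1.5-fold between each mutant and WT. H2-Aa was at 470 CPM in Myh6-R404Q hearts, 319 in Prkag2-p.R299Q hearts and 380 in WT hearts, H2-Ab1 at 347, 263 and 261, H2-Eb1 at 551, 393 and 563, and Cd74 at 675, 526 and 597. The largest ratio to WT was 1.33 for H2-Ab1 in Myh6-R404Q (1.02 to 1.75) and the smallest 0.698 for H2-Eb1 in Prkag2-p.R299Q (0.548 to 0.885). Ciita was 1.29 times its WT level in Myh6-R404Q (0.999 to 1.67) and 0.802 times in Prkag2-p.R299Q (0.582 to 1.10), so that no difference was detectable beyond counting error. Ccr2 was 0.893 times (0.674 to 1.19) and 0.706 times (0.5004 to 0.989).

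The summed level of 16 cell cycle genes was higher in both mutants than in WT, but rested on few cells. It was at 363 CPM in Myh6-R404Q hearts (95% exact Poisson interval 311 to 422), 270 in Prkag2-p.R299Q hearts (214 to 335) and 72.3 in WT hearts (45.8 to 108), which is 5.03 times (3.24 to 8.14) and 3.73 times (2.32 to 6.21) the WT level. In macrophages below the threshold it was at 408, 245 and 94.8 CPM. With cells thinned to 1000 UMIs the high class II cells held 19, 18 and 8 cell cycle UMIs, and the ratio to WT was 1.47 (0.612 to 3.87) for Myh6-R404Q and 3.78 (1.57 to 10.1) for Prkag2-p.R299Q. The Myh6-R404Q difference was thus not detectable beyond counting error at equal depth, and 10 of the 18 thinned UMIs of Prkag2-p.R299Q came from 1 cell. Below the threshold the thinned ratios were 4.23 (3.22 to 5.63) and 1.94 (1.42 to 2.66), and the difference between the kinds of macrophage was not tested. Kif23, a motor needed for the last step of division, was at 66.8 CPM in Myh6-R404Q hearts, 76.5 in Prkag2-p.R299Q hearts and 9.43 in WT hearts, which are 32, 23 and 3 UMIs. Top2a, which untangles replicated DNA, had 22, 3 and 2 UMIs. Cells with any cell cycle UMI numbered 52 of 247 in Myh6-R404Q hearts, 22 of 124 in Prkag2-p.R299Q hearts and 21 of 179 in WT hearts, and with thinned cells 13 of 120, 7 of 44 and 7 of 74. Single cells held 29 of 174 and 36 of 81 of the UMIs in the mutants.

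Several heat shock genes were lower in both mutants than in WT. The 14 genes summed to 1090 CPM in Myh6-R404Q hearts, 1208 in Prkag2-p.R299Q hearts and 1725 in WT hearts, and to 990, 1296 and 1670 CPM below the threshold. In Myh6-R404Q, 8 of 13 were at least 1.5 times lower and 1 higher, where 20.3% of all genes were lower and 21.2% higher. In Prkag2-p.R299Q 7 of 13 were lower and 0 higher, where 23.6% of all genes were lower and 18.9% higher. Hsph1, a partner of Hsp70, was at 16.7 CPM in Myh6-R404Q hearts, 73.2 in Prkag2-p.R299Q hearts and 94.3 in WT hearts, and its ratio of Myh6-R404Q to WT was 0.177 both in high class II cells and below the threshold. Dnaja1, a cofactor of Hsp70, was at 96.1, 186 and 229 CPM.

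Some inflammatory messages were lower in the mutants, on small counts. Il1b had 9 UMIs in Myh6-R404Q hearts, 2 in Prkag2-p.R299Q hearts and 19 in WT hearts, or 18.8, 6.65 and 59.7 CPM. Cxcl2, a chemokine for neutrophils, had 4, 0 and 18 UMIs, or 8.35, 0 and 56.6 CPM, and in WT these came from 8 cells. Tnfaip3, which restrains NF-kappaB signalling, was at 9.98 CPM in Prkag2-p.R299Q and 16.7 in Myh6-R404Q against 56.6 in WT. The chemokine and cytokine list as a whole had 8 of 14 genes at least 1.5 times lower and 4 higher in Myh6-R404Q against WT, beside 20.3% and 21.2% of all genes. In Prkag2-p.R299Q against WT it had 5 of 14 lower and 2 higher, beside 23.6% and 18.9%.

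Resident markers were not alike in the mutants. Vsig4 was at 81.4 CPM in Myh6-R404Q hearts, 133 in Prkag2-p.R299Q hearts and 37.7 in WT hearts, which is 2.16 times (1.11 to 4.53) and 3.53 times (1.82 to 7.39) the WT level. Lyve1 was at 52.2, 146 and 59.7 CPM, so that only the Prkag2-p.R299Q library stood apart from WT (2.45 times, 1.40 to 4.45). In Myh6-R404Q, 3 of 17 genes of this list were at least 1.5 times higher and 1 lower, where 21.2% and 20.3% of all genes were. In Prkag2-p.R299Q 8 of 19 were higher and 1 lower, where 18.9% and 23.6% of all genes were. F13a1 was at 2247, 3294 and 3083 CPM, and the fatty acid transporter Cd36 at 298.6, 230 and 600 CPM. In Prkag2-p.R299Q against Myh6-R404Q, 6 of 19 were higher, where 15% of all genes were, and 1 lower, where 22.7% were. Maf, a transcription factor gene of resident macrophages, was at 1042, 1218 and 729 CPM.

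**Figure D5:**
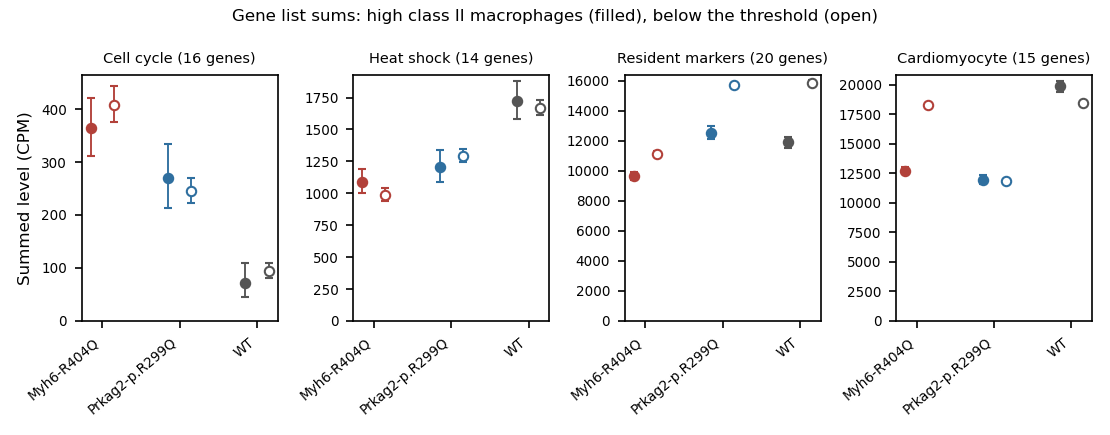
Summed level (CPM) of 4 gene lists by genotype in high class II macrophages (filled) and macrophages below the threshold (open), with 95% exact Poisson intervals. The cell cycle sum is 363, 270 and 72.3 CPM in the high class II cells of Myh6-R404Q, Prkag2-p.R299Q and WT, and 408, 245 and 94.8 CPM in the cells below the threshold.

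Most genes named by size in the genotype comparisons did not hold under other settings. Of 60 named entries over all comparisons, 6 still passed with thinned cells, 9 at 100 CPM and 30 with doublets kept. By size, the genes highest in Myh6-R404Q over WT were Oaz2, Rasgrf1, Kmo, Kif23, Gpr141, Dynlt1a, Ikzf2, Fn1, Slc15a2 and Cd244a, at 4.65 to 8.97 times the WT level. Oaz2 and Rasgrf1 each had 27 UMIs in Myh6-R404Q and 2 in WT (interval of the ratio 2.25 to 77.85). Kmo, an enzyme of tryptophan breakdown that dendritic cells also express, was at 68.9 CPM in Myh6-R404Q hearts, 49.9 in Prkag2-p.R299Q hearts and 9.43 in WT hearts. The matrix protein Fn1 was at 163, 36.6 and 34.6 CPM, but 61 of the 78 UMIs in Myh6-R404Q came from 1 cell. Dynlt1a has near-identical copies, which leaves its value uncertain. The lowest were Cd55, Kcnq5, Chrm3, Cxcl2, Hsph1, Skp1a, Cd38, Eif1a, Hibch and Unc13b. Cd38, an enzyme that consumes NAD, was at 20.9, 89.8 and 113 CPM, and its ratio of Myh6-R404Q to WT was 0.185 in the high class II cells and 0.193 below the threshold. Cd55, which shields cells from complement, had 0 UMIs in Myh6-R404Q and 17 in WT (interval of the ratio 0 to 0.161).

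In Prkag2-p.R299Q over WT the highest were Xpnpep1, Kif23, Lin7c, Nid2, Hsf3, Letm2, Aff3, Myh10, Abcd2 and Slc38a1, at 3.93 to 8.47 times the WT level, and the lowest Cxcl2, Chrm3, Il1b, Kcnq5, Unc13b, Pdhx, Lamb2, Casq2, Tnfaip3 and Cd55. The high WT values of the ion channel gene Kcnq5 and the muscarinic receptor gene Chrm3 each rested on 1 cell, with 16 of 19 and 30 of 37 UMIs. Casq2, a calcium store protein of heart muscle, was at 16.6 CPM in Prkag2-p.R299Q, 37.6 in Myh6-R404Q and 104 in WT, and the summed cardiomyocyte list was at 11960, 12720 and 19840 CPM in the same order. The part of muscle RNA in these values was not tested.

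Between the mutants, Prkag2-p.R299Q over Myh6-R404Q was highest for Nppa, Pus7, Hsph1, Cd38, Kcnab2, Ptpn7, Ermard, Samsn1, Myo1e and Mdn1. Myo1e, a myosin of phagocytic cups and adhesion, was at 343 CPM in Prkag2-p.R299Q, 113 in Myh6-R404Q and 251 in WT, and had the most UMIs of these genes (103, 54 and 80). The lowest were Sesn3, Ptgds, Mylk, Serinc5, Mamdc2, Fn1, Commd7, Edc3, Pcbp1 and Susd3, at 0.122 to 0.290 times the Myh6-R404Q level. Ptgds, a prostaglandin D2 synthase, was at 9.98, 58.5 and 40.8 CPM.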

How the data were processed

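The authors deposited whole-number UMI counts for each gene in each barcode, made with Cell Ranger 7.0.1 on mm10, per the submitters' processing notes. Whether intronic reads were counted is not given in the sources used here. Barcodes with at least 500 UMIs, 300 genes and at most 20% mitochondrial UMIs were kept, and doublets called by Scrublet in scanpy 1.11.5, at an expected 0.8% per 1000 barcodes, were left out. Median depth was 1559 to 2537 UMIs per barcode, so that most genes have 0 or 1 UMI in a cell.

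Counts were summed per library for high class II macrophages and macrophages below the threshold, and tested with edgeR 4.0.16 (R 4.3.3) after TMM scaling and its default filter on low counts. Library was a term in the fit because both groups of a pair come from the same library. The p-values come from 3 libraries of different genotype and mostly from a variance shared over genes, so they do not measure the spread of 1 gene alone. Genotypes were compared without a test, using CPM with exact Poisson intervals and ratios with exact conditional binomial intervals at 95%. These intervals and the floor of 3 counts cover counting error only. List medians used genes that reached 10 CPM in 1 of the libraries and a pseudocount of 1 CPM.

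Named genes were the 15 highest and 15 lowest called genes with the same sign in all 3 libraries and at least 20 CPM in the higher group, and by genotype the 10 highest and 10 lowest past the size rule. Genes of the rule, mitochondrial, ribosomal, haemoglobin, immunoglobulin and predicted genes and genes under 0.5 of their level outside the gate were left out, and listed genes were added when called or abundant. The members and the 30 gene lists were chosen with earlier results of these data known. Alternatives were another scaling, DESeq2 1.42.0, no filter on low counts, no library term, each library left out, other thresholds, thinned cells and doublets kept. Leaving out cells with dendritic markers, and leaving mitochondrial and cardiomyocyte genes out of the sums, were chosen after seeing the data. Only the edgeR fit was tried on simulated counts, drawn with a wider spread than the fit found in these data. The choice of cells, the thinning, the shares, the genotype comparisons and the promoter search were not simulated. Gene positions come from a GENCODE annotation of mm10, and promoters from RefSeq (GRCm38.p6). A few listed genes are not reported here.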

Additional observations from a re-analysis of the deposited data

Results flagged for a closer look

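Among 390 listed genes and the summed lists, a few moved in opposite directions in different libraries between high class II macrophages and macrophages below the threshold, with counting intervals on either side of 1. The difference between libraries was not tested. The ratio for Fn1 was 2.32 in Myh6-R404Q hearts, 0.249 in Prkag2-p.R299Q hearts and 0.430 in WT hearts, and in Myh6-R404Q 61 of 78 UMIs came from 1 cell. Kmo stood at 1.86 in Myh6-R404Q and 0.224 in WT. Cxcl2 stood at 0 in Prkag2-p.R299Q, where the high class II cells had 0 UMIs, and at 2.80 in WT.

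Heart muscle genes made up the rest. The summed cardiomyocyte list had a ratio of 0.697 in Myh6-R404Q and 1.07 in WT. Single genes in Myh6-R404Q and WT were Myh6 at 0.705 and 1.20, Tnni3 at 0.857 and 1.14, Myl3 at 0.814 and 1.20, Tpm1 at 0.817 and 1.14, and Mybpc3 at 0.738 and 1.34. The ratio for Ttn was 0.460 in the Myh6-R404Q library and 1.47 in that of Prkag2-p.R299Q, where 721 of 1152 UMIs came from 1 cell.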

How the results depend on the processing

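Limits: there is 1 library per genotype, cells carry few UMIs, and thinning to 1000 UMIs leaves fewer cells, so many calls are lost there. The 357 higher and 503 lower genes became 113 and 155 with DESeq2, 31 and 22 with thinned cells, and 147 to 332 and 172 to 510 with 1 library left out. With no replicate block, that is with the library term left out and the pairing of the groups ignored, 88 were higher and 69 lower. The other settings stayed within 1.5 times. Thinned shares of Prkag2-p.R299Q were 1.07 times WT and 0.551 times Myh6-R404Q over kept cells, and 0.754 and 0.393 times over gated macrophages. By size at 100 CPM, 40 genes were higher and 84 lower in Myh6-R404Q over WT, 28 and 95 in Prkag2-p.R299Q over WT, and 29 and 21 in Prkag2-p.R299Q over Myh6-R404Q. Lists at least 1.5-fold from all genes then numbered 2, 3 and 0, against 6, 6 and 3. With thinned cells, lower genes numbered 72, 22 and 25, and 11 lists passed in Myh6-R404Q over WT. With doublets kept, lower genes numbered 70 in Myh6-R404Q over WT and 108 in Prkag2-p.R299Q over WT. The cause was not tested.

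Of the genes called above that were tested again with thinned cells, 16 of 306 higher and 40 of 335 lower ones changed sign. With doublets kept, 0 of 357 higher and 7 of 503 lower ones did. Among the named genes, signs turned, on the log2 scale, with thinned cells for Ryr2 (0.0072), Actn2 (0.067), Vegfa (0.43) and Fgf13 (0.61), and with doublets kept for Col8a1 (0.25). By genotype with thinned cells they turned for Chrm3 in Myh6-R404Q over WT (0.28), for Chrm3 (0.71), Nid2 (-0.24), Hsf3 (-0.24), Myh10 (-5.38) and Lamb2 (4.57) in Prkag2-p.R299Q over WT, and for Ptpn7 (-3.22) and the endothelial (0.43) and cell cycle (1.35) list medians in Prkag2-p.R299Q over Myh6-R404Q. Ratios this far from 0 rest on few UMIs and on the pseudocount. With doublets kept Chrm3 was at 0.052 in Prkag2-p.R299Q over WT. At 3 or more class II UMIs, Kcnq5 was at 2.82 in Myh6-R404Q over WT and 3.61 in Prkag2-p.R299Q over WT, and the cell cycle list at 0.27 in Prkag2-p.R299Q over Myh6-R404Q. The cause was not tested.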

Other observations

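Lipid genes of the high class II macrophages differed by gene. Apoe, a lipid carrier that macrophages secrete, was at 457 CPM in Myh6-R404Q hearts, 346 in Prkag2-p.R299Q hearts and 251 in WT hearts, or 1.82 times (1.40 to 2.38) and 1.38 times (1.02 to 1.87) the WT level. Of the 219 Apoe UMIs in Myh6-R404Q, 72 came from 1 cell. Lpl, which releases fatty acids from lipoproteins, was at 464, 309 and 820 CPM, or 0.565 times (0.471 to 0.679) and 0.377 times (0.294 to 0.480). Fabp4, a fatty acid binding protein that endothelium also makes, was at 370, 283 and 503 CPM. Summed lipid genes were at 2606, 2269 and 2681 CPM, and at 2035, 1562 and 2108 CPM in cells outside the gate. The part of RNA from other cells in these levels was not tested. Over the list, 3 of 15 genes were at least 1.5 times higher and 2 lower in Myh6-R404Q against WT, where 21.2% and 20.3% of all genes were, and 1 higher and 4 lower in Prkag2-p.R299Q against WT, where 18.9% and 23.6% were.

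The nucleotide receptor P2ry6 was at 322 CPM in Myh6-R404Q hearts, 296 in Prkag2-p.R299Q hearts and 182 in WT hearts, and Gpr34, a receptor for lysophosphatidylserine, at 60.6, 49.9 and 15.7 CPM. Sirpa, the receptor for CD47, was at 317, 316 and 192 CPM, and its ratio to WT was 1.66 and 1.65, against 1.05 and 1.09 in macrophages below the threshold. The difference between the kinds of macrophage was not tested.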
